A study of Mus musculus with 8 samples.

Results

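The Frizzled receptors, Fzd1 to Fzd10, were followed over 3 days in tissue of the closing mouse eye cup. The members were all probe sets of the array table annotated with 1 of these 10 gene symbols, which gave 26 of 45101 probe sets, and each of the 10 genes had at least 1. Of these, 21 passed the filter on low signal (a mean log2 signal of at least 3.94 over the arrays), and every gene kept at least 1 probe set. The 5 that did not pass were the second probe sets of Fzd1, Fzd7 and Fzd10 and the third of Fzd4 and Fzd6, so that 27022 probe sets, 21 of them Frizzled, were tested.

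The optic fissure is a temporary cleft along the underside of the developing eye, and its margins join as the cup closes. A laser was used to dissect it out of cryosections of untreated wild-type embryos of the strain C57BL6/J at embryonic days 10.5, 11.5 and 12.5. There were 3 arrays (A, B and C) at E10.5, 3 at E11.5 and 2 (A and B) at E12.5. Each array carried amplified RNA pooled from 3 embryos of its stage, which the labels give once as coming from 1 litter and once as coming from separate litters, so the spread between arrays is a spread between pools.

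Frizzled proteins are multi-pass membrane receptors with an extracellular cysteine-rich domain that holds the lipid of a Wnt ligand. With the co-receptors Lrp5 or Lrp6 they pass the signal through Dishevelled to beta-catenin, and with other partners they orient cells in the plane of an epithelium. In the mouse eye, Fzd5 is needed for the optic cup and for closure of the fissure, its closest relative Fzd8 shares part of that work, and Fzd4 is the receptor of Norrin in retinal vessels.

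The windows around the transcription start are shown for 3 members, Fzd5 as the receptor that rose at E12.5, and Fzd4 and Fzd7 as receptors with lower values at that stage. They come from RefSeq (build GRCm38.p6), run from 250 bases before the start to 50 bases after it and read 5′ to 3′ on the gene's own strand. Capitals mark 3 motifs, searched for on both strands. One is the GC box, spelled GGGCGG. Another is the CCAAT box, spelled as its name. The last is the core recognised by SOX proteins, spelled ACAAAG.
Fzd5, chr1:64737701-64738000, minus strand: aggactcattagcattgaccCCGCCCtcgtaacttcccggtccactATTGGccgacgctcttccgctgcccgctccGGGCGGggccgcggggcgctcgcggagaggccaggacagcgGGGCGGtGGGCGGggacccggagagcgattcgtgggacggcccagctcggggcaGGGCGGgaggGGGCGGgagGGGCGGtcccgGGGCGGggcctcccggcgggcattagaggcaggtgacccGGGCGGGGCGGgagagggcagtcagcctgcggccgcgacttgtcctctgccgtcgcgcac
Fzd4, chr7:89404116-89404415, plus strand: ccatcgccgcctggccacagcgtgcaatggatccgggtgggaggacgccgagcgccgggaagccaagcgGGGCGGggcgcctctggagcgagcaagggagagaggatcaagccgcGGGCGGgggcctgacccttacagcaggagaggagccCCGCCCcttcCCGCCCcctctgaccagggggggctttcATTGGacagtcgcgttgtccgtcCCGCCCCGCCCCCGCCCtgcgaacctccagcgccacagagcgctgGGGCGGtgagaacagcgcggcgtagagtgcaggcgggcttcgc
Fzd7, chr1:59481897-59482196, plus strand: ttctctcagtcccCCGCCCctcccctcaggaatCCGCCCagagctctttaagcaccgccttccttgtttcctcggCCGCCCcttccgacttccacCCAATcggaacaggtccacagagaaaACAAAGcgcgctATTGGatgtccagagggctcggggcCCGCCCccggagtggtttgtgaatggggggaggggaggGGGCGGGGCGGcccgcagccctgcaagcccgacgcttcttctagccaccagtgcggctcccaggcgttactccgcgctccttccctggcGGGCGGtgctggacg

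Of the 10 members, 6 were matched to this sequence table (Fzd1, Fzd4, Fzd5, Fzd7, Fzd9 and Fzd10), and Fzd2, Fzd3, Fzd6 and Fzd8 were not analysed here for sequence. The Fzd5 window held 10 GC boxes, the Fzd4 window 8 and the Fzd7 window 7, some of them overlapping. A GC box was present in 35.7% of all 32851 windows and a CCAAT box, present in these 3 windows, in 37.4%. Their GC content was 75.7% for Fzd5, 72.7% for Fzd4 and 66.7% for Fzd7, against a median of 52.7% over all windows. The TCF/LEF core (CTTTGA, in 16.0% of all windows) was matched in the Fzd1 window and in none of the other 5 members' windows. The SOX core (18.7%) was matched for Fzd1 and Fzd7, a TATA box (TATAAA, 13.6%) for Fzd1, an E-box (CACGTG, 7.2%) for Fzd9, and the paired homeodomain core (TAATTA, 5.3%) for none of the 6. These are matches of letters in a short window, and GC and CCAAT boxes were present in all 3 windows shown.

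The arrays differed in scale, which touches every value below. The 8 array medians lay between 4.37 and 4.48 in log2 signal, but the 99th percentile was 12.55 to 12.93 at E10.5, 11.19 to 12.38 at E11.5 and 12.47 to 12.58 at E12.5, with no E11.5 array overlapping the other stages (exact two-sided permutation test of E11.5 against E10.5, p = 0.1, the smallest that 3 arrays against 3 allow, and of E12.5 against E11.5, p = 0.2). The gap in log2 signal between the 3 prime and 5 prime Actb control probe sets, which widens as amplified RNA gets shorter, was also lower on all E11.5 arrays (5.45 to 6.61) than at E10.5 (6.83 to 6.96) or E12.5 (6.88 to 7.21). For Gapdh the same gap was 3.36 to 4.63 at E11.5, which overlapped E10.5 (4.19 to 4.71, exact two-sided permutation p = 0.3) and lay below E12.5 (4.78 to 5.17). Quantile normalised values, which give all arrays 1 distribution, are therefore set beside the deposited ones where a call or the sign of a median differs. Markers fixed for this work were read beside the tissue label. The optic cup genes Rax, Six3, Six6, Lhx2, Pax6, Sox2 and Hes1 were all kept, as were Vax1 and Vax2 of the ventral optic cup, with mean log2 signals at E10.5 of 8.88 and 8.86. Markers of other tissues were kept too (7 of 11 for lens and 5 of 9 for surface ectoderm), so passing the filter does not identify the tissue. In tissue of mixed cell types, fewer cells of a type and less RNA per cell cannot be told apart.

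**Figure D1:**
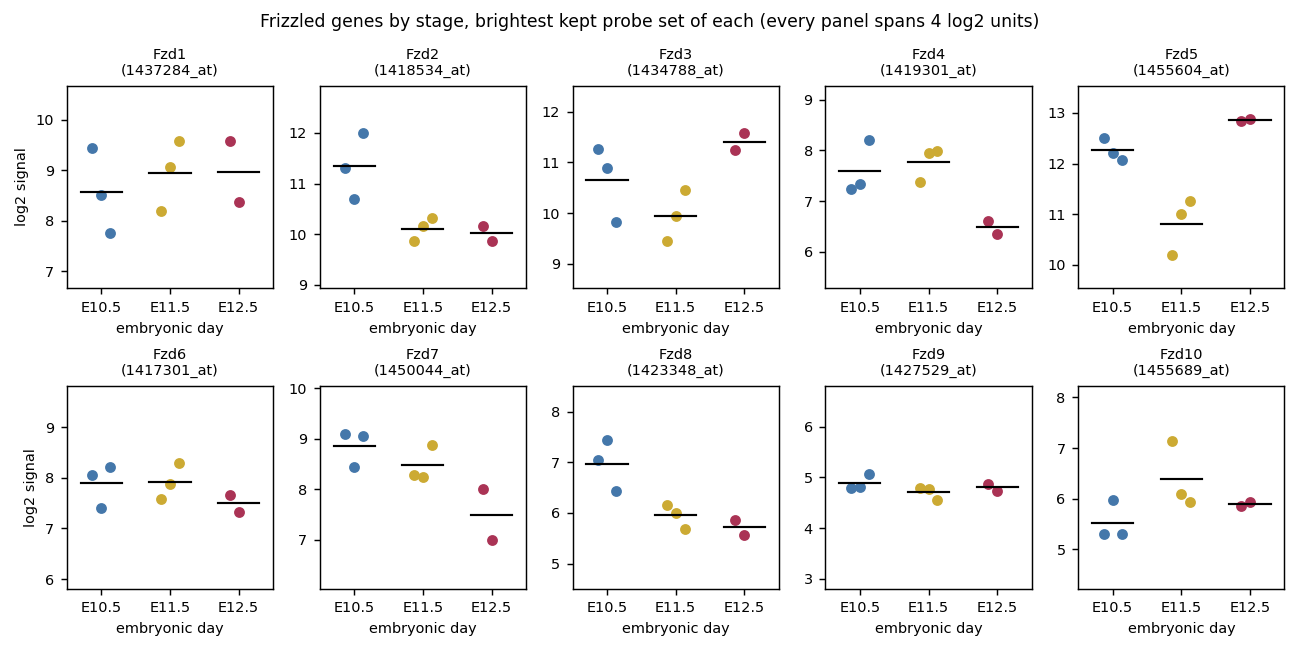
Log2 signal (vertical axes) of the brightest kept probe set of each Frizzled gene by embryonic day, with 1 point for each of the 8 arrays and a bar at the stage mean. Fzd5 is lowest at E11.5 and highest at E12.5, Fzd2 and Fzd8 are highest at E10.5, Fzd4 and Fzd7 are lowest at E12.5, and the arrays of the 3 stages overlap for Fzd1 and Fzd6.

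Fzd5 rose at E12.5 relative to E11.5, Fzd2 and Fzd8 fell at E12.5 relative to E10.5, and no Frizzled probe set passed the test at E11.5 over E10.5. A call is a Benjamini-Hochberg adjusted p below 0.05 in limma over all 27022 tested probe sets, and 0 of the 21 probe sets were called at E11.5 over E10.5, where 0.126% of all tested probe sets were called. At an unadjusted p below 0.05 there were 11 of 21 in that comparison, against 19.4% of all probe sets. At E12.5 over E11.5, 1 was called (Fzd5, higher), or 4.76% of the 21, against 1.82% of all in either direction and 1.62% in the higher direction. At E12.5 over E10.5, 3 were called, all lower (2 of Fzd2 and 1 of Fzd8), or 14.3% of the 21, against 4.64% of all in either direction and 1.56% in the lower direction. In the F test for any stage difference, 2 were called (Fzd5 1455604_at and Fzd2 1418532_at), against 2.92% of all. Probe sets of 1 gene share their transcript, so these counts are not counts of independent receptors.

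Groups that did not overlap were more common than calls. At E11.5 over E10.5, 10 of 21 probe sets were lower on every array and 0 were higher, where 19.3% and 3.57% of all probe sets were. At E12.5 over E11.5, 8 were lower on every array and 4 higher, against 14.1% and 29.6% of all. At E12.5 over E10.5, 12 were lower and 1 higher, against 25.7% and 19.3% of all. These counts were taken on the deposited scale. After quantile normalization E11.5 overlapped E10.5 on some of the 10, namely 1418534_at and 1418533_s_at (Fzd2), 1420087_at (Fzd3), 1423348_at (Fzd8) and the Fzd9 probe set. Shares of all probe sets were not counted on that scale. With 1 probe set per gene as deposited, 6 of 10 genes had a lower and 4 a higher mean at E12.5 than at E10.5. The median difference was -0.24, against -0.08 for all probe sets. The median over the 10 genes was -0.29 at E11.5 over E10.5, against -0.18 for all probe sets, and -0.17 at E12.5 over E11.5, against 0.10. After quantile normalization these medians were -0.25, 0.00 and -0.55, against -0.06, -0.02 and -0.04 for all probe sets.

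The design asks how expression changed from day to day, and Fzd5, the receptor that marks the early optic cup, was the single Frizzled gene called at E12.5 over E11.5. Its probe set 1455604_at read 12.50, 12.20 and 12.07 in log2 signal at E10.5, 10.19, 10.99 and 11.25 at E11.5, and 12.85 and 12.88 at E12.5. The 3 E11.5 arrays lay below all others and the 2 E12.5 arrays above all others, with no overlap between any pair of stages. The mean was 12.86 ± 0.02 (SD, n = 2) at E12.5 and 10.81 ± 0.55 (SD, n = 3) at E11.5, a log2 difference of 2.05 (moderated SE 0.39, 4.15-fold), which passed in limma (adjusted p = 0.0218). The difference of E11.5 from E10.5 was -1.45 (SE 0.35, adjusted p = 0.142) and that of E12.5 from E10.5 was 0.61 (SE 0.39, adjusted p = 0.384), and neither passed.

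The Fzd5 values were also read on the other scale. After quantile normalization the probe set read 11.94, 11.999 and 11.55 at E10.5, 11.18, 11.52 and 11.26 at E11.5, and 12.62 and 12.79 at E12.5. The rise at E12.5 over E11.5 was then 1.38 (SE 0.18, adjusted p = 0.00577), and E12.5 was also called higher than E10.5, by 0.87 (SE 0.18, adjusted p = 0.0258), while the difference of E11.5 from E10.5 was -0.51 (adjusted p = 0.305). The 2 E12.5 arrays stayed above all others on either scale. With the deposited values the call was lost without E11.5 B (adjusted p = 0.0895), without E12.5 A (0.12) and without E12.5 B (0.318), with the difference between 2.04 and 2.14 in those fits.

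**Figure D2:**
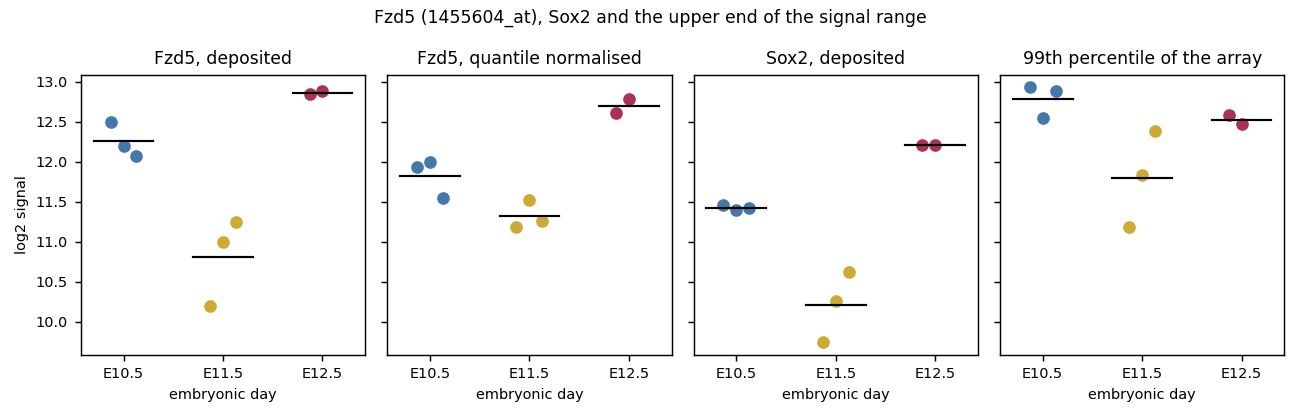
Log2 signal by embryonic day of Fzd5 as deposited, of Fzd5 after quantile normalization, of Sox2 as deposited and of the 99th percentile of all probe sets, with 1 point per array and a bar at the stage mean. All panels are lowest at E11.5, and Fzd5 reaches 12.85 and 12.88 on the E12.5 arrays as deposited and 12.62 and 12.79 after quantile normalization.

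The second Fzd5 probe set, 1422937_at, was dimmer and was not called. It read 6.15, 5.63 and 6.43 at E10.5, 5.22, 5.33 and 5.55 at E11.5, and 5.58 and 5.71 at E12.5. The E11.5 arrays were again the lowest, and the E12.5 arrays overlapped the E10.5 arrays. The difference of E12.5 from E11.5 was 0.27 (SE 0.26, adjusted p = 0.643). Over the 8 arrays the 2 probe sets correlated at r = 0.55 (a description, since both were read on the same arrays). The mean of both gave a rise of 1.16 (SE 0.28, adjusted p = 0.0564), which did not pass.

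Markers of the optic cup are given beside Fzd5. Of the 7 kept, 1 was called at E12.5 over E11.5 (Sox2) and 6 were not, and their median difference was 1.07, or 0.40 after quantile normalization. Their summed signal was 13.41 to 13.66 (log2) at E10.5, 12.19 to 13.19 at E11.5 and 13.98 to 14.08 at E12.5, the same order of stages. Single markers differed from that order, with Pax6 at a mean of 10.76 at E11.5, against 10.47 at E10.5, and with Rax at -0.48, Lhx2 at -0.12 and Six3 at -0.03 at E12.5 over E10.5. The markers' part in the Fzd5 result was not tested. By Pearson correlation of log2 signal over the 8 arrays, the genes most like Fzd5 were Casp8ap2 (r = 0.989), Akirin1 (0.989), Plagl1 (0.988), Spc25 (0.987) and Sox2 (0.986). Sox2, a transcription factor of neural progenitors, was itself called at E12.5 over E11.5, with a difference of 1.998 (SE 0.34, adjusted p = 0.0129). These genes share the arrays and their scale with Fzd5, so the coefficients describe likeness only.

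Fzd8, the closest relative of Fzd5, was called lower at E12.5 than at E10.5. Its probe set 1423348_at read 7.04, 7.45 and 6.42 at E10.5, 6.16, 6.00 and 5.69 at E11.5, and 5.86 and 5.57 at E12.5. All E10.5 arrays lay above all later ones, and the later stages overlapped. After quantile normalization E11.5 A, at 6.42, lay above E10.5 C, at 6.37. As deposited, the probe set fell by 1.26 at E12.5 relative to E10.5 (SE 0.31, 2.39-fold, adjusted p = 0.0401). Its mean was 5.71 ± 0.21 (SD, n = 2) at E12.5, against 6.97 ± 0.51 (SD, n = 3) at E10.5. The difference of E11.5 from E10.5 was -1.02 (SE 0.27, adjusted p = 0.153) and that of E12.5 from E11.5 was -0.24 (SE 0.31, adjusted p = 0.747).

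The second Fzd8 probe set, 1445815_at, correlated with the first at r = 0.92 over the 8 arrays. It read 6.41, 7.51 and 5.67 at E10.5, 5.29, 4.56 and 5.32 at E11.5, and 5.24 and 4.89 at E12.5. Its E10.5 arrays again lay above all later ones, with E10.5 B the highest on both probe sets. The difference of E12.5 from E10.5 was -1.47 (SE 0.44, adjusted p = 0.0804) and did not pass. The call on the first probe set lay close to the threshold and was lost with quantile normalization (-1.25, adjusted p = 0.0516), with median centring (0.0535) and without any 1 of E10.5 A, E10.5 B, E11.5 A, E11.5 B, E12.5 A or E12.5 B (adjusted p between 0.0508 and 0.426). Genes most like Fzd8 over the 8 arrays were Aen (r = 0.982), Pa2g4 (0.978), 4930553P18Rik (0.977), Nup50 (0.968) and Sdf2l1 (0.967).

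Fzd2, which in mouse acts with Fzd1 in closure of the palate, fell at E12.5 relative to E10.5 on 2 of its 3 probe sets, and the third had values in the same direction. Probe set 1418532_at read 6.83, 7.08 and 8.02 at E10.5, 6.03, 6.61 and 6.41 at E11.5, and 5.93 and 4.999 at E12.5. The stages did not overlap, with each later stage below the one before. It fell by 1.85 at E12.5 relative to E10.5 (SE 0.38, 3.59-fold, adjusted p = 0.0211). Probe set 1418533_s_at, whose suffix marks probes that can match other transcripts, read 7.99, 7.98 and 9.77 at E10.5, 7.52, 7.49 and 7.24 at E11.5, and 6.78 and 6.24 at E12.5. It fell by 2.07 (SE 0.47, 4.20-fold, adjusted p = 0.0309), again with no overlap between stages as deposited. After quantile normalization E11.5 A read 7.98, above E10.5 A at 7.79 and E10.5 B at 7.94. As deposited, the brightest Fzd2 probe set, 1418534_at, read 11.31, 10.69 and 12.01 at E10.5, 9.86, 10.17 and 10.31 at E11.5, and 10.16 and 9.87 at E12.5.

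On that probe set all E10.5 arrays lay above all later ones, but E12.5 and E11.5 overlapped. After quantile normalization E11.5 A and B read 10.75 and 10.60, above E10.5 B at 10.59, and E12.5 and E11.5 no longer overlapped. As deposited, the difference of E12.5 from E10.5 was -1.32 (SE 0.39, adjusted p = 0.0786). After quantile normalization it was -1.08 (SE 0.26, adjusted p = 0.042), so that all 3 Fzd2 probe sets were then called. The mean of the 3 probe sets gave -1.75 (adjusted p = 0.0222). E10.5 C was the highest array on each of them, and without it the 2 called probe sets kept their calls, at -1.49 (adjusted p = 0.0302) and -1.47 (adjusted p = 0.0112). Without E12.5 B both calls were lost (adjusted p = 0.339 and 0.351), and that of 1418533_s_at was also lost without E11.5 B (0.0537) and without E12.5 A (0.078). Genes most like the probe set 1418533_s_at were Znrd2 (r = 0.997), Pde2a (0.996), Zfp771 (0.996), Yju2 (0.995) and Mtif3 (0.995).

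**Figure D3:**
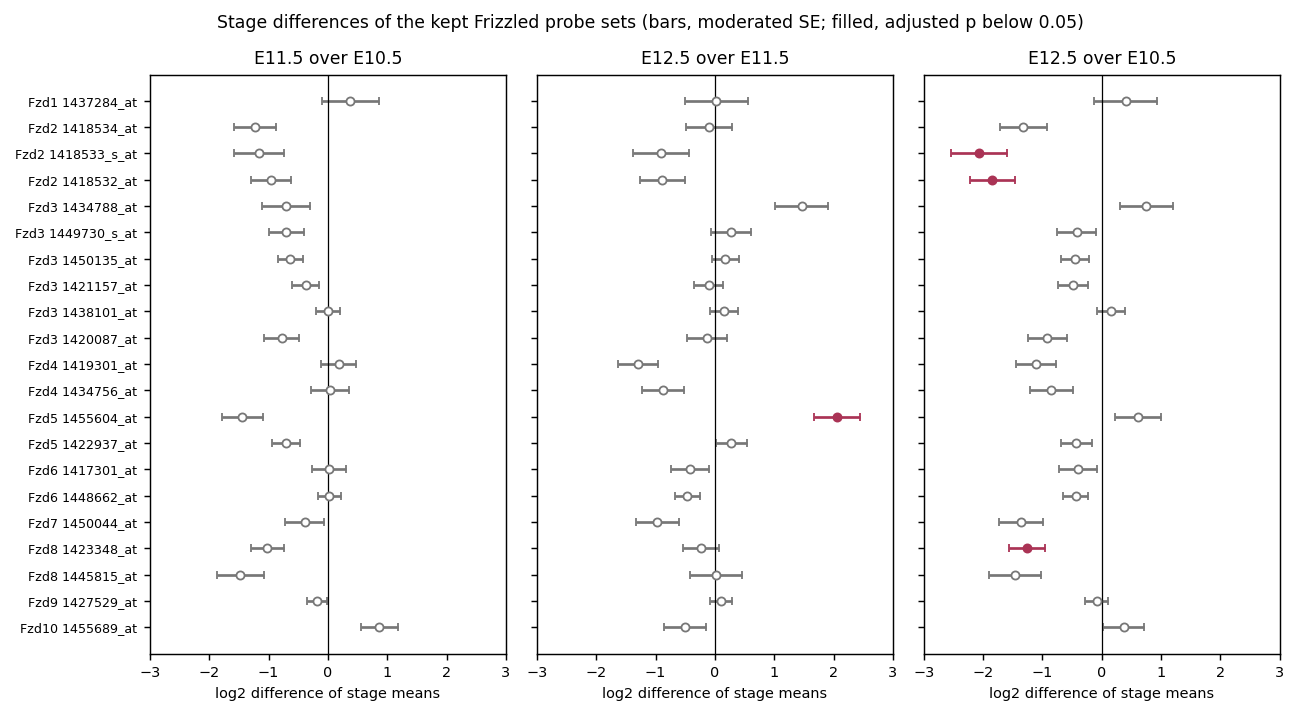
Log2 difference of stage means (horizontal axes) for the 21 kept Frizzled probe sets in the 3 comparisons, with moderated standard errors as bars and filled points where the adjusted p was below 0.05. None is filled at E11.5 over E10.5, Fzd5 at 2.05 is filled at E12.5 over E11.5, and Fzd2 at -2.07 and -1.85 and Fzd8 at -1.26 are filled at E12.5 over E10.5.

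Fzd4, the Norrin receptor, had its lowest values at E12.5 on both kept probe sets, without passing. On 1419301_at it read 7.24, 7.34 and 8.20 at E10.5, 7.39, 7.96 and 7.99 at E11.5, and 6.61 and 6.36 at E12.5. The E12.5 arrays lay below all others, and E11.5 and E10.5 overlapped. The difference of E12.5 from E11.5 was -1.29 (SE 0.33, adjusted p = 0.0838), and from E10.5 it was -1.11 (SE 0.33, adjusted p = 0.0803). After quantile normalization the first of these was -1.58 (SE 0.29, adjusted p = 0.0298) and passed. As deposited it also passed with only the 2 stages compared (adjusted p = 0.044) and without E10.5 C (0.0192). The other kept probe set, 1434756_at, read 8.11, 7.004 and 7.35 at E10.5, 7.11, 7.58 and 7.86 at E11.5, and 6.89 and 6.38 at E12.5, with a difference of E12.5 from E11.5 of -0.88 (SE 0.36, adjusted p = 0.246).

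Markers of other cell types are given beside Fzd4. The summed signal of the 6 kept endothelial markers was 7.83 to 8.25 (log2) at E10.5, 7.84 to 8.04 at E11.5 and 8.34 to 8.36 at E12.5. None of the 6 was called in any comparison, and their median difference at E12.5 over E11.5 was 0.01, or -0.02 after quantile normalization. Kdr differed by 1.26 there (adjusted p = 0.0604), and the other 5 lay between -0.20 and 0.09. Within E10.5 and within E11.5 the arrays had the same order for Fzd4 and for this sum (r = 0.87 over the 8 arrays for deviations from the stage means), while over the 8 values themselves r was -0.43. This was not particular to endothelium. For deviations from the stage means, r with Fzd4 was 0.925 for the surface ectoderm sum and 0.852 for the macrophage sum. Of the 10 endothelial markers listed, Pecam1, Cdh5, Tie1 and Emcn had no kept probe set. Markers of the periocular mesenchyme, the tissue around the optic cup, summed over 10 of 13 genes, were 8.46 to 8.87 at E10.5, 9.92 to 10.85 at E11.5 and 9.93 to 10.65 at E12.5. Col1a1 and Twist1 were among those not kept. Markers of newborn retinal neurons had the largest median difference of the 10 marker lists at E12.5 over E11.5 (4.74), with a sum over 6 of 7 genes of 6.49 to 6.70 at E10.5, 6.24 to 6.40 at E11.5, and 12.05 and 13.23 at E12.5, and 5 of the 6 were called higher at E12.5 over E11.5. Over the 8 arrays this sum had r = -0.85 with Fzd4, -0.82 with Fzd7 and 0.66 with Fzd5 (rho = -0.62, -0.41 and 0.81). Without the 2 arrays farthest from its median r was 0.09, 0.36 and 0.55. Those 2 were the E12.5 arrays, so the coefficients over all 8 mostly restate the difference of E12.5 from the earlier stages. The part of these cell types in the Fzd4, Fzd5 and Fzd7 values was not tested.

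Fzd7, a receptor of the same branch of the family as Fzd1 and Fzd2, read 9.09, 8.44 and 9.05 at E10.5, 8.28, 8.25 and 8.88 at E11.5, and 8.01 and 6.99 at E12.5 on 1450044_at. The E12.5 arrays were the lowest but stood about 1 log2 unit apart. The mean was 7.50 ± 0.72 (SD, n = 2) at E12.5 and 8.86 ± 0.36 (SD, n = 3) at E10.5, a difference of -1.36 (SE 0.37, adjusted p = 0.0571). After quantile normalization it was -1.31 (SE 0.30) and passed (adjusted p = 0.0355). Fzd1 read 9.43, 8.50 and 7.76 at E10.5, 8.20, 9.05 and 9.58 at E11.5, and 9.57 and 8.37 at E12.5 on 1437284_at. Its stages overlapped throughout, and the 3 differences were 0.38, 0.02 and 0.40 with adjusted p between 0.688 and 0.991.

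Fzd3 and Fzd6 serve planar polarity, and Fzd3 also guides growing axons in the mouse brain. The brightest Fzd3 probe set, 1434788_at, read 11.26, 10.90 and 9.82 at E10.5, 9.45, 9.94 and 10.46 at E11.5, and 11.24 and 11.58 at E12.5. The E12.5 arrays lay above the E11.5 arrays, and E10.5 overlapped both. The difference of E12.5 from E11.5 was 1.46 (SE 0.45, adjusted p = 0.142), or 0.91 after quantile normalization (adjusted p = 0.228). The other 5 kept Fzd3 probe sets did not follow it, with differences of E12.5 from E11.5 between -0.13 and 0.28 and correlations with the brightest between -0.06 and 0.67 over the 8 arrays.

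The 6 Fzd3 probe sets also disagreed in sign at E12.5 over E10.5, where the brightest was at 0.75 and 1438101_at at 0.16, and the other 4 lay between -0.92 and -0.43, none of them called. At E11.5 over E10.5 all 6 were at or below 0, between -0.78 and -0.00. Fzd6 read 8.05, 7.40 and 8.22 at E10.5, 7.57, 7.88 and 8.29 at E11.5, and 7.66 and 7.33 at E12.5 on 1417301_at. Its stages overlapped in every pair, and its differences were 0.02, -0.42 and -0.40. The dimmer 1448662_at had its 2 lowest arrays at E12.5, at 3.97 and 3.83, with a difference of E12.5 from E11.5 of -0.46 (SE 0.21, adjusted p = 0.3).

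The kept probe sets of Fzd9 and Fzd10 had mean log2 signals of 4.80 and 5.94, above the array medians of 4.37 to 4.48. Fzd9, studied in mouse for its part in bone and hippocampus, read 4.80, 4.81 and 5.07 at E10.5, 4.79, 4.77 and 4.55 at E11.5, and 4.87 and 4.74 at E12.5 on 1427529_at. The widest gap between its stage means was 0.19 (a difference of -0.19 at E11.5 over E10.5, SE 0.17, adjusted p = 0.559). Fzd10, known from the dorsal neural tube, read 5.30, 5.97 and 5.31 at E10.5, 7.15, 6.10 and 5.93 at E11.5, and 5.86 and 5.93 at E12.5 on 1455689_at. E11.5 A alone stood above 7, and the difference of E11.5 from E10.5 was 0.87 (SE 0.32, adjusted p = 0.189). The 5 probe sets that did not pass the filter had stage means between 2.79 and 3.86 and were not tested.

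**Figure D4:**
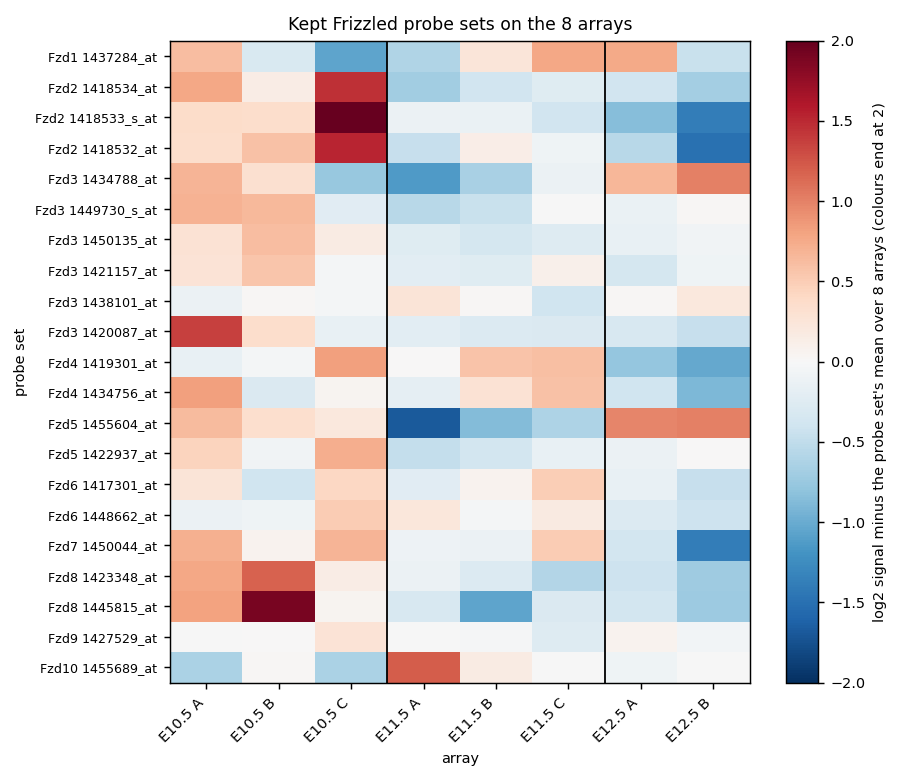
Log2 signal of the 21 kept Frizzled probe sets (rows) on the 8 arrays (columns), each shown as the deviation from the probe set's own mean, in red where above it and blue where below. The Fzd2 rows are highest on E10.5 C, and 2 of the 3 are lowest at E12.5, the Fzd8 rows are highest on E10.5 B, and the brighter Fzd5 row is lowest on E11.5 A.

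The genes that work with Frizzled receptors were counted in 8 lists of 93 genes, of which 72 had a kept probe set. None was called at E11.5 over E10.5, where 0.126% of all probe sets were, and 20 of the 72 (27.8%) had an unadjusted p below 0.05 in limma, against 19.4% of all. At E12.5 over E11.5 1 rose and 71 did not pass (1.39% called, against 1.82% of all probe sets). At E12.5 over E10.5 2 rose, 5 fell and 65 did not pass (9.72% called, against 4.64% of all probe sets). The 72 were counted by the brightest kept probe set of each gene, and the share of all genes counted in that way was not taken, so the units differ. After quantile normalization 1 rose at E11.5 over E10.5, 1 rose and 3 fell at E12.5 over E11.5, and 3 rose and 6 fell at E12.5 over E10.5, among them all 7 called on the deposited scale. The median difference of the 72 genes was -0.15 at E12.5 over E10.5, against -0.10 for all genes.

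Among Wnt ligands 10 of 19 were kept, and 1 rose and 2 fell at E12.5 over E10.5. Wnt5a, a ligand of the branch that does not need beta-catenin, read 4.31, 5.16 and 4.55 at E10.5, 4.81, 5.45 and 6.47 at E11.5, and 6.61 and 6.37 at E12.5. It rose by 1.82 at E12.5 relative to E10.5 (SE 0.41, adjusted p = 0.0298), with no overlap between these stages. Wnt5b, its close relative, fell by 2.19 (SE 0.35, adjusted p = 0.00535), to a mean of 8.17 ± 0.50 (SD, n = 2) at E12.5, against 10.37 ± 0.46 (SD, n = 3) at E10.5, and both of its kept probe sets were called. Wnt8b, a ligand of the early forebrain, fell by 2.42 (SE 0.51, adjusted p = 0.0236), with 8.04 on E10.5 C against 5.60 and 6.40 on the other E10.5 arrays. After quantile normalization Wnt7b, another ligand, was also called there, with a difference of -1.01 (adjusted p = 0.0435), against -0.99 (adjusted p = 0.0584) as deposited, and Wnt5b was called lower at E12.5 over E11.5 (-1.62, adjusted p = 0.0409).

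Of 11 kept co-receptors and partner receptors of 13 listed, 2 fell at E12.5 over E10.5 and 9 did not pass. Ror2, a receptor tyrosine kinase that binds Wnt5a beside Frizzled, fell by 1.77 (SE 0.34, adjusted p = 0.0147), and Gpc4, a glypican that carries Wnt ligands at the cell surface, fell by 1.92 (SE 0.38, adjusted p = 0.0177). Both kept probe sets of each gene were called. Ror2 was also called lower at E12.5 over E11.5 after quantile normalization (-1.55, adjusted p = 0.046). Gpc4 was already low at E11.5, at 8.43, 8.43 and 8.27, against 9.80, 9.75 and 11.07 at E10.5, a difference of -1.83 that did not pass (adjusted p = 0.0823). The co-receptor Lrp6 differed by 0.36 at E12.5 over E11.5 (adjusted p = 0.643), and Lrp5 had no kept probe set.

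The secreted proteins that carry a Frizzled-like cysteine-rich domain moved in opposite directions, 1 higher and 1 lower of 5 at E12.5 over E10.5. Sfrp2 rose by 1.74 (SE 0.37, adjusted p = 0.023) and by 2.06 relative to E11.5 (SE 0.37, adjusted p = 0.0155). It read 10.65, 10.27 and 10.57 at E10.5, 9.63, 10.20 and 10.70 at E11.5, and 12.37 and 12.10 at E12.5, with both E12.5 arrays above all others, as for Fzd5. Sfrp1 fell by 1.57 at E12.5 relative to E10.5 (SE 0.38, adjusted p = 0.0379) on the probe set used, and all 4 of its kept probe sets were called there. At E12.5 over E11.5, 1 of the 4 was called as deposited, and the probe set used was not (-0.96, adjusted p = 0.233). After quantile normalization the probe set used was called lower there (-1.42, adjusted p = 0.0258).

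**Figure D5:**
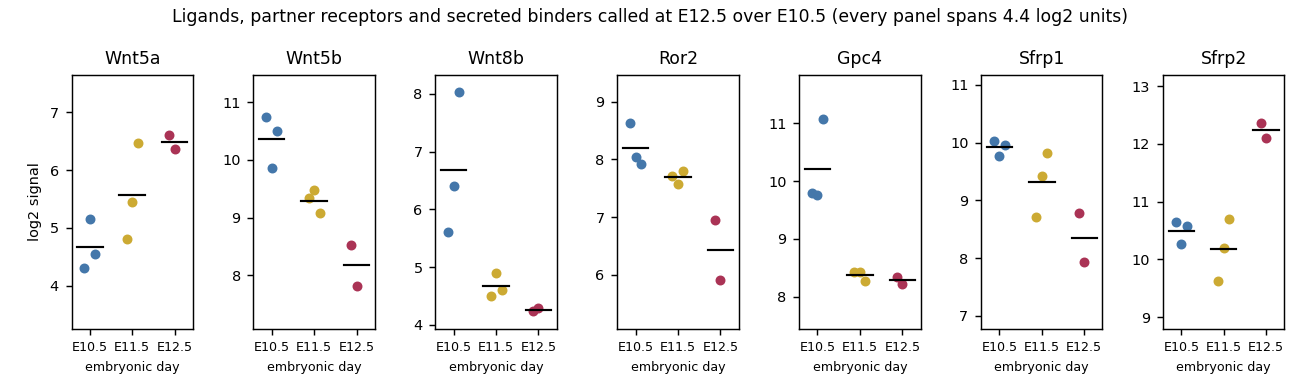
Log2 signal (vertical axes) by embryonic day of the 7 genes of the Wnt reception lists that were called at E12.5 over E10.5, with 1 point per array and a bar at the stage mean. Wnt5a and Sfrp2 are higher at E12.5 and Wnt5b, Wnt8b, Ror2, Gpc4 and Sfrp1 are lower, with no overlap between E12.5 and E10.5 arrays.

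Among the listed genes downstream of the receptors, 0 were called in limma in the 3 pairwise comparisons on either scale, where 0.126%, 1.82% and 4.64% of all probe sets were called as deposited. This covers the 22 kept genes of Dishevelled and the beta-catenin branch, with medians of -0.37, 0.14 and -0.21 in the 3 comparisons (E11.5 over E10.5, E12.5 over E11.5, E12.5 over E10.5), and the 16 kept genes of planar cell polarity, with medians of -0.28, 0.47 and -0.02. The medians of all genes were -0.22, 0.11 and -0.10. After quantile normalization the medians were -0.04, -0.14 and -0.20 for the beta-catenin branch and -0.03, 0.22 and 0.03 for planar polarity, against 0.00, -0.07 and -0.07 for all genes, so that the sign turned in the second comparison for the beta-catenin branch and in the third for planar polarity. Tcf7l2, a transcriptional partner of beta-catenin, had the smallest F test p of the first list. Its mean was lowest at E11.5, with differences of -0.89 at E11.5 over E10.5 (SE 0.21, adjusted p = 0.14) and 0.86 at E12.5 over E11.5 (SE 0.24, adjusted p = 0.102). At E12.5 over E10.5 it was -0.03 (adjusted p = 0.948). In the planar polarity list Rac1 had the smallest F test p. Its differences were -0.996 at E11.5 over E10.5 (adjusted p = 0.161) and -0.93 at E12.5 over E10.5 (adjusted p = 0.139). Vangl2, a core planar polarity protein, differed by 0.90 at E12.5 over E11.5 (SE 0.29, adjusted p = 0.152). Among the 5 kept genes for Norrin, R-spondins and receptor turnover none was called pairwise as deposited, and Lgr4, a receptor of R-spondins, was called higher at E12.5 over E10.5 after quantile normalization (1.32, adjusted p = 0.0174, against 1.34 and 0.0529 as deposited). Rspo1, an R-spondin, passed the F test (adjusted p = 0.0423). It read 3.84, 3.68 and 3.32 at E10.5, 4.75, 4.31 and 5.56 at E11.5, and 3.78 and 3.71 at E12.5. Norrin itself (Ndp) had no kept probe set. Wls, which carries Wnt ligands to the cell surface, passed the F test (adjusted p = 0.0236), with 6.94, 6.92 and 7.47 at E11.5, against 5.08, 6.00 and 5.60 at E10.5, but its difference of 1.55 did not pass in the pairwise test (adjusted p = 0.0614). After quantile normalization it was 1.71 and passed (adjusted p = 0.032). Smo, the nearest receptor relative of the Frizzled family and the transducer of hedgehog signals, had a difference of -0.86 at E12.5 over E10.5 (SE 0.30, adjusted p = 0.126).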

How the data were processed

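Optic fissure RNA from 8 pools, each of 3 wild-type embryos, was amplified linearly and given a biotin label during transcription, per the labels' protocols. The authors deposited a table of log2 signal with 8 array columns. The submitters' processing notes list GCOS 1.4 without saying what it did, and the background correction, summarization, normalization and centring behind the values are not given in the sources used here. Precision is limited by the number of arrays, and p-values measure the spread between pools.

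The 64 control probe sets and the lowest 40% by mean signal were left out, which kept 27022. Genes were named for the 34958 probe sets that the array annotation ties to 1 symbol (932 had several and 9211 none). Limma 3.58.1 (R 4.3.3) was applied to the deposited log2 signal in 1 model of stage over all 8 arrays (5 residual degrees of freedom), with empirical Bayes moderation and a trend, two-sided tests and Benjamini-Hochberg adjustment over all kept probe sets. A difference is one of stage means on the log2 scale and understates changes of dim probe sets. Each gene is given by its brightest kept probe set unless another is named, and levels are compared within a probe set, never between genes. Named genes outside the family were the called genes of the Wnt lists (otherwise up to 4 with the smallest F test p), and for each member with a call the 5 genes with the highest correlation over the arrays. The co-receptors Lrp5 and Lrp6 and Norrin (Ndp) were named outside this rule. The members and lists were chosen with earlier results of these data known. No 2 arrays held identical values, and the replicate letters did not pair arrays (correlation of same-letter deviations from the stage means between -0.394 and 0.127 over 7 pairs). In simulated independent values for 27022 probe sets the fit recovered, for 4-fold changes, 78% of 50 at E11.5 over E10.5, 76% at E12.5 over E11.5 and 68% at E12.5 over E10.5. For 2-fold changes it recovered 32%, 8% and 16%. The simulated arrays had no differences in scale, and each comparison was drawn 1 time, so these shares need not hold for the real arrays. Alternatives covered normalization, pseudocounts of 1 and 64, filters, the prior, array weights, a replicate block, the arrays used, leaving out each array, and averaging probe sets. Some marker genes are not reported here.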

Additional observations from a re-analysis of the deposited data

How the results depend on the processing

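Counts of calls depended on single arrays and on the spread estimate. All probe sets called at E11.5 over E10.5 numbered 34, and 6 with no trend, 15 with only the 2 stages compared, 0 with a pseudocount of 64, 103 without E10.5 C and E11.5 A together (added after seeing the data), and 5 (without E11.5 B) to 56 (without E11.5 A) when 1 array was left out. At E12.5 over E11.5 there were 492, and 114 (without E12.5 B) to 905 (without E11.5 C) with 1 array left out. At E12.5 over E10.5 there were 1255, and 509 with only the 2 stages, and 209 (without E12.5 B) to 1610 with 1 array left out. Array weights gave 5017, 12520 and 3371 in these 3 comparisons and 10, 11 and 8 Frizzled calls (16 for any stage difference), but that estimate did not converge and put a weight of 218 on E11.5 B. A replicate block, the letter as a term, gave 5, 280 and 531 calls in all, and 0 Frizzled calls at E12.5 over E11.5, 1 at E12.5 over E10.5 and 0 for any stage difference. Quantile normalization moved the split of higher to lower calls to 42 and 4 from 26 and 8 at E11.5 over E10.5, and to 281 and 134 from 438 and 54 at E12.5 over E11.5.

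Beside the counts with array weights above, Frizzled calls at E11.5 over E10.5 were 0, except 1 without the 2 arrays together. At E12.5 over E11.5 they were 1, and 2 with quantile normalization and without the 2 arrays, and 0 to 2 with 1 array left out. The 1 call was not always Fzd5. With only the 2 stages compared it was Fzd4 (1419301_at, -1.29, adjusted p = 0.044 in limma). Fzd4 was also the second call with quantile normalization, without E10.5 C (adjusted p = 0.0192) and without the 2 arrays (0.00805). At E12.5 over E10.5 they were 3, and 0 with only the 2 stages, 1 with a pseudocount of 64, 5 with quantile normalization, 6 without the 2 arrays, and 0 to 5 with 1 array left out. For any stage difference they were 2, and 1 with median centring, no filter, no trend or either pseudocount, 6 without the 2 arrays, and 0 to 6 with 1 array left out.

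The rise of Fzd5 at E12.5 over E11.5 was not called with the replicate block (2.12, adjusted p = 0.0759), with only the 2 stages (2.05, 0.0575) or with the mean of its probe sets (1.16, 0.0564), and it was 1.74 to 2.27 with 1 array left out. The fall of Fzd8 at E12.5 over E10.5 was not called with quantile normalization (-1.25), median centring (-1.22), a pseudocount of 64 (-0.71), no filter, no trend or only the 2 stages (-1.26 each), and was -1.53 to -1.02 with 1 array left out. That of Fzd2 was not called with the replicate block (-1.66 on 1418532_at and -1.81 on 1418533_s_at), with only the 2 stages (-1.85 and -2.07) or, on the second, with a pseudocount of 64 (-1.55). With 1 array left out it was -2.31 to -1.38 and -2.37 to -1.47. Of the 82 alternative values of these called changes 55 kept direction and call, 27 lost the call and 0 turned.

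Of 573 alternative values of the 28 changes that were not called, 17 turned in sign and 25 passed. At E11.5 over E10.5, Fzd1 turned without E10.5 C (range with 1 array left out -0.024 to 0.81), Fzd6 without E10.5 B or E11.5 C (-0.22 to 0.19), and Fzd7 with quantile normalization (0.035). At E12.5 over E11.5, Fzd1 turned with quantile normalization (-0.42), array weights (-0.087), the replicate block (-0.020) and without the 2 arrays together (-0.35), as it did when either E11.5 A or E12.5 A was dropped (-0.58 to 0.63 over all arrays). Fzd2 turned there with the replicate block (0.12) and when E11.5 C or E12.5 B was dropped (-0.24 to 0.046). At E12.5 over E10.5, Fzd1 turned without the 2 arrays together (-0.00063) and when E10.5 C or E12.5 A was dropped (-0.20 to 1.00), and Fzd3 with the mean of its probe sets (-0.23). The cause of these changes was not tested. Dim probe sets such as that of Fzd9, with a mean log2 signal of 4.80, lie toward the low end of the signal range, where a change is understated.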

Other observations

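Fzd1 showed no stage difference in the report, but it varied widely within stages, beside the markers of the pigment epithelium. Its probe set 1437284_at read 9.43, 8.50 and 7.76 on E10.5 A, B and C, 8.20, 9.05 and 9.58 on E11.5 A, B and C, and 9.57 and 8.37 on E12.5 A and B. The summed signal of the 8 pigment epithelium markers (Tyr, Tyrp1, Dct, Pmel, Mitf, Oca2, Slc45a2 and Trpm1) was 12.89, 11.87 and 11.28 on the same E10.5 arrays, 11.89, 12.62 and 13.20 at E11.5, and 12.57 and 11.86 at E12.5 (log2). The order of the arrays was the same for both within each stage. Single markers differed from it, with Tyr at 4.25, 3.09 and 3.96 on E10.5 A, B and C. The order was not particular to this list, since the summed ventral optic cup markers had it too. Their r with Fzd1 was 0.862 for the deviations from the stage means and 0.564 over the 8 arrays. For Fzd1 and the pigment epithelium sum, Pearson's r over the 8 arrays was 0.953 and Spearman's rho 0.857. Without the 2 arrays farthest from the median of that sum r was 0.921, and for the deviations from the stage means it was 0.981. This pair was picked after its values were seen, from 100 relations of 10 members with 10 marker lists, of which 2 had r above 0.9. The other was Fzd5 with the optic cup markers, at r = 0.972, rho = 0.905 and r = 0.903 without the 2 farthest arrays. In the negative direction, Fzd10 with the erythroid markers had r = -0.913 over the 8 arrays. For the deviations from the stage means, 4 of the 100 relations had r above 0.9, Fzd1 with the pigment epithelium sum among them. All values share the arrays and their scale, so these are descriptions with no test.

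The 2 E12.5 arrays differed from each other for several members, chosen here after their values were seen. On E12.5 A and B, Fzd7 (1450044_at) read 8.01 and 6.99, Fzd1 9.57 and 8.37, and Fzd2 (1418532_at) 5.93 and 4.999. Of the 21 kept Frizzled probe sets 13 were lower on E12.5 B than on E12.5 A, against 59% of all kept probe sets. Fzd5 (1455604_at) read 12.85 and 12.88.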
